A study of Mus musculus with 4 samples.

Results

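The genes described here are 43 genes of DNA damage signalling and repair. They were chosen by symbol from a list of 5 roles, and the rule used no measured value, although earlier results of these data were known. The list held 18 genes of homologous recombination, 4 checkpoint kinases, 11 genes of the Fanconi anaemia pathway, 3 of mismatch repair and 7 of excision repair. All 43 symbols were found among the 49585 genes of the deposited table. Cells of 2 clones of the murine 4T1 triple–negative breast cancer line were compared, 4T1–HM with a high and 4T1–LM with a low metastatic capacity, each grown from a single cell. Both were cultured for 48 h with 50 µM deferasirox (DFX), an iron chelator, or with its solvent DMSO, which gave the groups HM_Ctrl (4T1–HM, DMSO), HM_DFX (4T1–HM, DFX), LM_Ctrl (4T1–LM, DMSO) and LM_DFX (4T1–LM, DFX). Each group is 1 bulk RNA–seq library, so nothing below was checked in replicates and no test across genes was made. With 1 clone for each metastatic class, a property of the clone and a property of its class cannot be told apart.

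Cells mend DNA by several routes. Homologous recombination copies the intact sister chromatid to rejoin a double–strand break, the Fanconi anaemia pathway removes links between the strands, mismatch repair corrects errors of replication, and excision repair cuts out damaged bases or stretches of bases, while the kinases ATM, ATR, CHK1 and CHK2 report damage and hold the cell cycle. A number of repair helicases and DNA glycosylases carry an iron–sulfur cluster, a cofactor whose assembly needs iron.

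The level of a gene is given in FPKM, the number of sequenced fragments on the gene scaled to its exon length and to the total of the library. The FPKM gave library totals of 16745608 (HM_Ctrl), 14363065 (HM_DFX), 15731521 (LM_Ctrl) and 21883855 fragments (LM_DFX). Differences were taken on the log2(FPKM + 1) scale, which understates the change of low genes. A difference of 2-fold was the limit for a call, and the 12669 genes that reached 1 FPKM in any library were considered. Intervals in brackets after a ratio of FPKM are exact 95% binomial intervals of the fragments, without the added 1, and cover counting error only. Ndrg1, a gene known to rise when iron is chelated, was at 177 FPKM with DMSO and 577 with DFX in 4T1–HM, and 49.1 with DMSO and 613 with DFX in 4T1–LM. The 8 epithelial markers of a mammary carcinoma summed to 1792, 584, 2292 and 1110 FPKM in HM_Ctrl, HM_DFX, LM_Ctrl and LM_DFX, so epithelial markers were present throughout and their sum was lower with DFX. Not all of the 8 were lower, since Krt19 rose in 4T1–LM (46.4 to 103.2 FPKM) and Esrp1 was slightly above its DMSO level in both clones. Of 12 markers of leukocytes, endothelium and fibroblasts, Cd68 and Pdgfra reached an FPKM of 1. The 12 summed to between 16.1 and 88.7 FPKM, of which Cd68 gave 83.1 in LM_DFX, and the leukocyte markers Adgre1 and Cd3e were at 0 in all 4 libraries. The part of any change in cell type or state in the values below was not tested, and in bulk RNA fewer cells of a kind and less RNA per cell cannot be told apart.

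All 43 repair genes were expressed, and 41 had an FPKM of at least 1 in all 4 libraries. They were genes of low to moderate level. Their median was 5.68 FPKM with DMSO and 4.11 with DFX in 4T1–HM, and 5.85 with DMSO and 4.22 with DFX in 4T1–LM, where the medians of all expressed genes were 8.08, 7.13, 7.71 and 7.77. In all 4 libraries 32 of the 43 stayed under 10 FPKM, and 6 genes (Rad50, Nbn, Chek1, Msh6, Parp1 and Ercc1) reached 20 FPKM in at least 1 library. Fragments on the 43 genes made up 0.198% of the library with DMSO and 0.172% with DFX in 4T1–HM, and 0.209% with DMSO and 0.201% with DFX in 4T1–LM. Across the 43 genes, HM_DFX held the lowest level of the 4 libraries for 22 genes (51.2%, beside 36.6% of all expressed genes). LM_Ctrl held it for 10 (23.3%, beside 27.2%), LM_DFX for 6 (14%, beside 19%) and HM_Ctrl for 5 (11.6%, beside 17.2%).

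**Figure D1:**
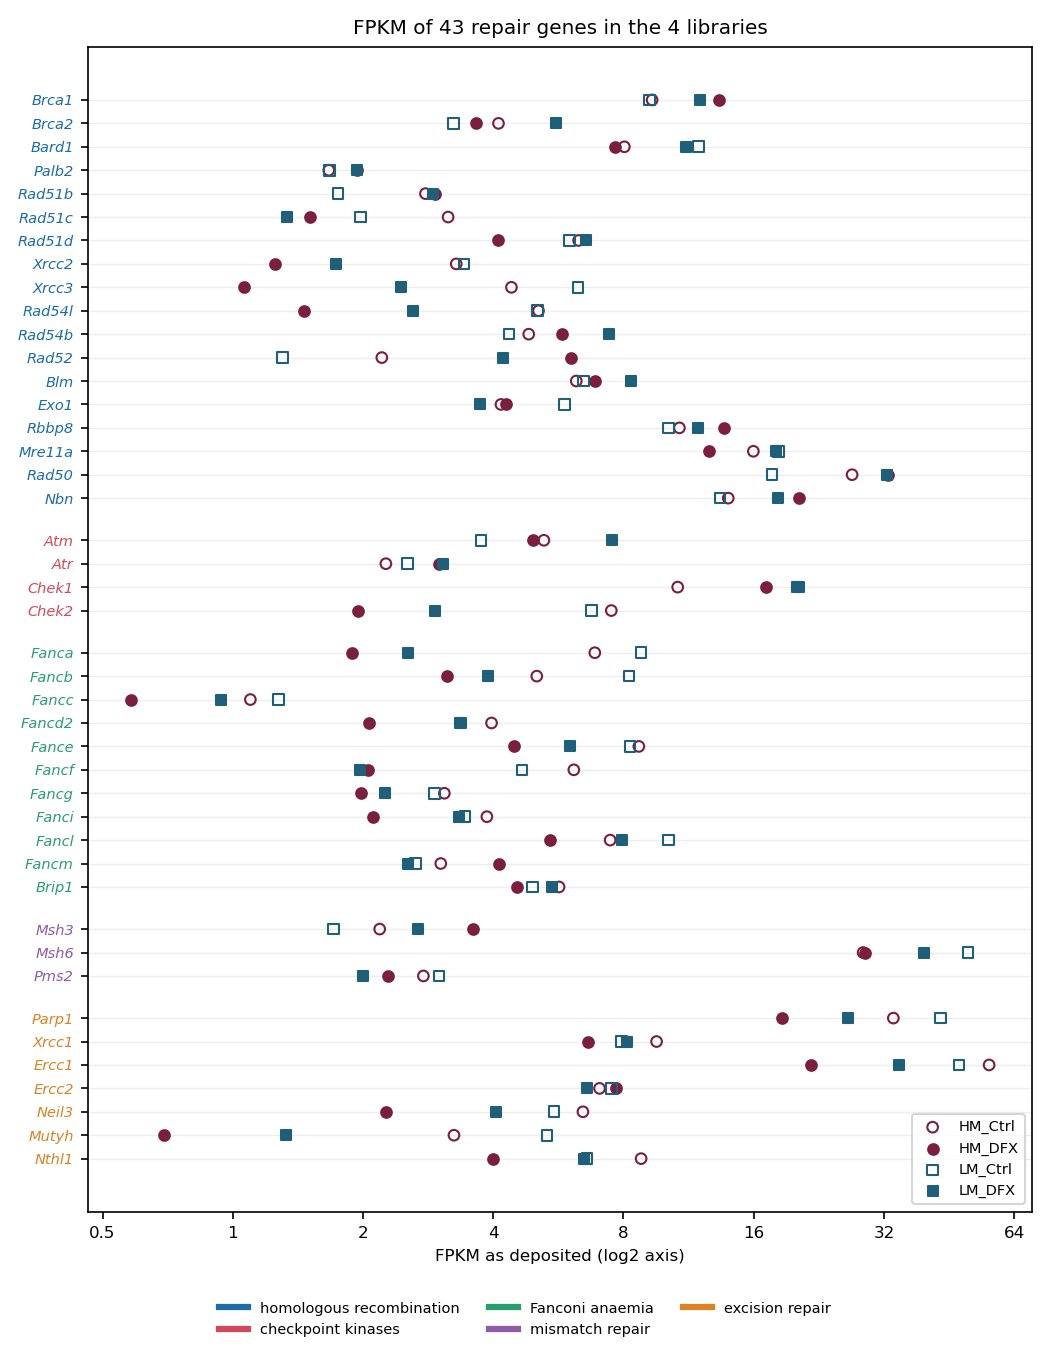
FPKM of the 43 repair genes (log2 axis) in the 4 libraries, 1 point per library, with circles for 4T1–HM, squares for 4T1–LM, open for DMSO and filled for DFX, and gene names coloured by role. Filled points lie left of the open ones for most Fanconi anaemia and excision repair genes, and right of them for Rad52, Nbn and Msh3.

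With DFX, 8 of the 43 genes fell by 2-fold or more in 4T1–HM cells. These were Xrcc3 and Rad54l of homologous recombination, the kinase Chek2, Fanca and Fancf of the Fanconi anaemia core complex, and Ercc1, Neil3 and Mutyh of excision repair. The 8 genes are 18.6% of the 43, beside 12.4% of all expressed genes called lower in the same comparison. One gene, Rad52, was called higher, 2.33% of the 43 beside 6.93% of all expressed genes. The median log2 fold change of the 43 genes was −0.31, and that of all expressed genes was −0.10.

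In 4T1–LM cells 3 of the 43 genes were lower with DFX, Xrcc3, Fanca and Mutyh, which is 6.98% beside a background of 8.72%. Rad52 was again higher, beside a background of 7.09%. The median log2 fold change was −0.04 for the 43 genes and −0.04 for all expressed genes. These 3 genes were lower in 4T1–HM too, 6.98% of the 43 in both clones, beside 5.32% of all expressed genes. With any size of change, 22 of the 43 were below 0 in both clones and 12 above 0 in both, which is 51.2% and 27.9%, and over all expressed genes these shares were 42.4% and 33.5%. With median–ratio scaling 17 of the 43 (39.5%) were below 0 in both clones and 13 (30.2%) above 0 in both, beside 38.0% and 38.4% of all expressed genes, so the excess below 0 in both clones was nearly gone. The sign was opposite between the clones for 9 genes (20.9%, beside 23.0% of all expressed genes), of which Brca2, Rad51d, Atm, Brip1 and Xrcc1 were below 0 in 4T1–HM and above 0 in 4T1–LM, and Exo1, Fancm, Msh6 and Ercc2 the other way.

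The deposited table places the 4 genes that passed 2-fold in both clones on mouse build mm10. Xrcc3 (ENSMUSG00000021287) lies at chr12:111803192-111813873 on the minus strand, Fanca (ENSMUSG00000032815) at chr8:123268300-123318576 on the minus strand, Mutyh (ENSMUSG00000028687) at chr4:116807723-116819440 on the plus strand and Rad52 (ENSMUSG00000030166) at chr6:119902698-119922828 on the plus strand. Chek2 (ENSMUSG00000029521), at chr5:110839979-110874145 on the plus strand, had the largest fall of the 43 genes in 4T1–HM on the log2(FPKM + 1) scale.

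The sequences before the starts of these 5 genes are shown because they passed 2-fold in both clones or, for Chek2, had that largest fall. Each is the RefSeq stretch of build GRCm38.p6 upstream of the start, read along the gene's strand 5′ to 3′ and shortened where it ran into an exon of a protein–coding gene. Capitals mark matches on either strand to CCAAT, which the factor NF–Y binds and which reads ATTGG on the other strand, and to the E2F motif in the forms TTTCCCGC, TTTGGCGC, TTTCGCGC and TTTGCCGC. The stretches are chr12:111813880-111814129 for Xrcc3, chr8:123318577-123318826 for Fanca, chr4:116807641-116807722 for Mutyh, chr5:110839778-110839978 for Chek2 and chr6:119902448-119902697 for Rad52, and the last overlaps an exon of the non–coding gene 4930540M05Rik.
Xrcc3: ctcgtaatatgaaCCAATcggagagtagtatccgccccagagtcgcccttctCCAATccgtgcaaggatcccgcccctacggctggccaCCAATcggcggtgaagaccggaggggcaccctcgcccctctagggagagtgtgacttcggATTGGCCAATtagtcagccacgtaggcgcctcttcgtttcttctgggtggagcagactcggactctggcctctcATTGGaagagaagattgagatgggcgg
Fanca: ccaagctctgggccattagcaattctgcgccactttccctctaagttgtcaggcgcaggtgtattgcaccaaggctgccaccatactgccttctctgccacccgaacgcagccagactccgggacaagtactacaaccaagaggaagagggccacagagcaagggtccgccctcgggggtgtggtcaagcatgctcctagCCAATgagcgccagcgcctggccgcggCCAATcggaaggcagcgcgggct
Mutyh: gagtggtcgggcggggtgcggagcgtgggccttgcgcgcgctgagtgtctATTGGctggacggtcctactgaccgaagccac
Chek2: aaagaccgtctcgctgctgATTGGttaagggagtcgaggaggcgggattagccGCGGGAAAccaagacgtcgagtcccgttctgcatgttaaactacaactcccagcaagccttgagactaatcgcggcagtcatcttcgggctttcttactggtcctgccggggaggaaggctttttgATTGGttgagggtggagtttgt
Rad52: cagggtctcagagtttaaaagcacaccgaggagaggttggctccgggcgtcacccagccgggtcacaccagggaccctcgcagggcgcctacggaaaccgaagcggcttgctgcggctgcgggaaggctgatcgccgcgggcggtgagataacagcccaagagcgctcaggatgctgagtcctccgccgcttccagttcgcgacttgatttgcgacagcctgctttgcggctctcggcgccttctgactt

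The Xrcc3 stretch held 6 CCAAT matches, and the stretches of Fanca, Mutyh and Chek2 held 2, 1 and 2. Chek2 also held 1 E2F match. The Rad52 stretch held neither motif. Of the 43 genes, 35 had a RefSeq window of 300 bases, from 250 before to 50 after the start. CCAAT was found in 22 of these 35 windows (62.9%) and in 41.1% of the windows of 27025 genes. Those 27025 genes were not filtered by expression, while the 43 were all expressed, so the 2 sets are not alike in that respect. The E2F motif was in 8 of 35 (22.9%) and in 2.6% of all. TTTGAA, the core of the CHR element of late cell cycle genes, was in 2 of 35 (5.71%) and in 20.2% of all. Among the 20 genes below 0 in both clones that had a window, 12 held CCAAT and 5 held E2F, and among the 8 above 0 in both, 4 held CCAAT and 1 held E2F. A match is a run of letters and not a bound site, and the motifs were found both in genes below 0 and in genes above 0.

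**Figure D2:**
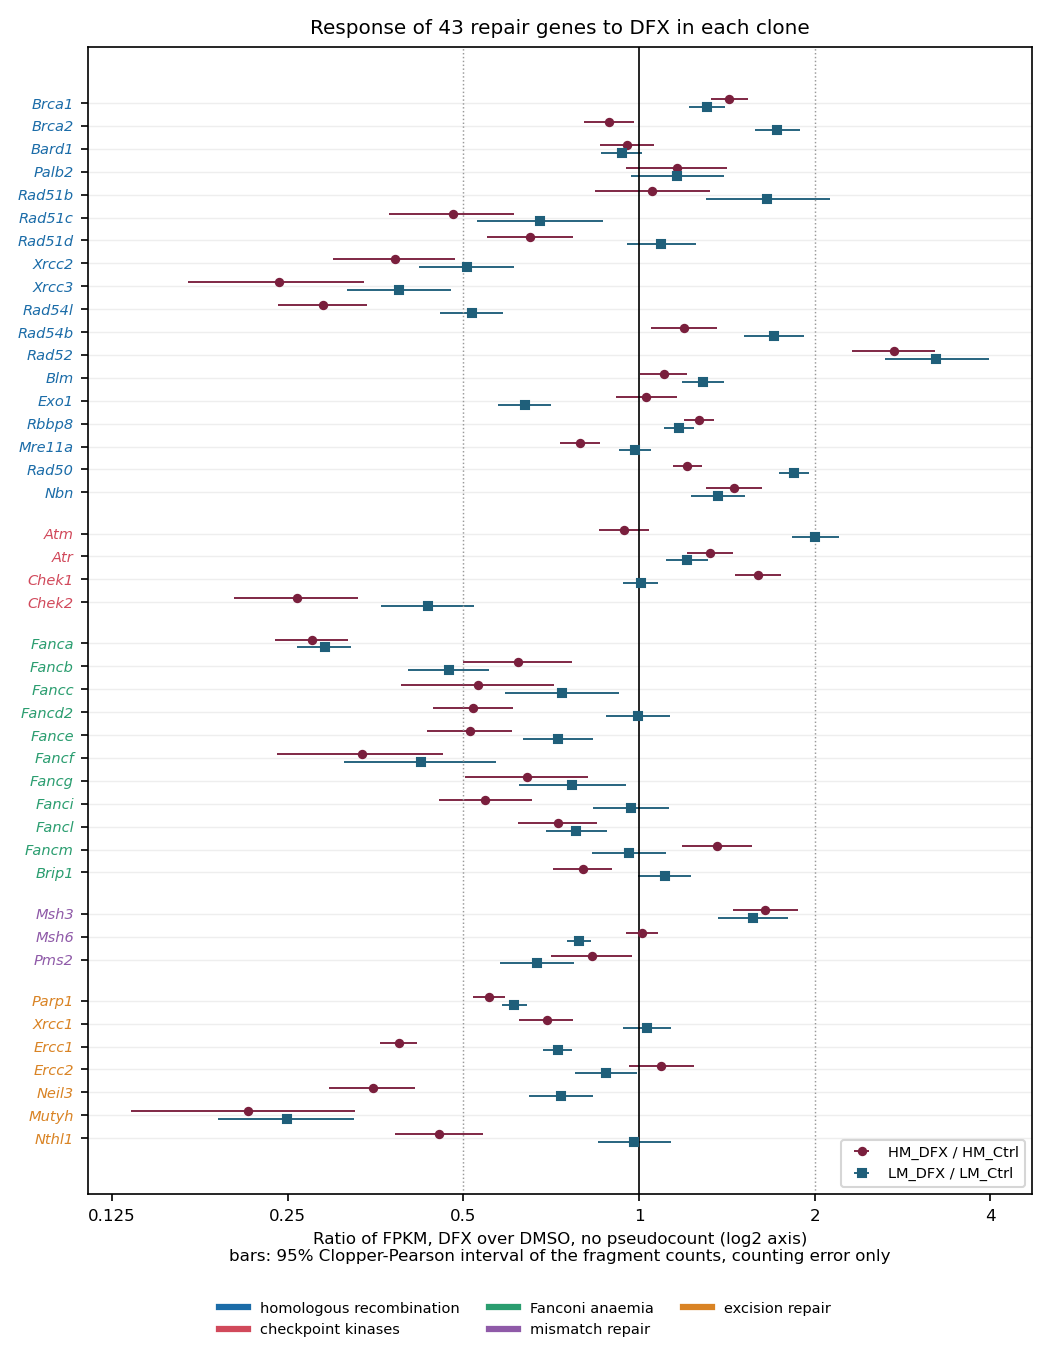
Ratio of FPKM in DFX over DMSO for the 43 repair genes (log2 axis, no added 1), with circles for 4T1–HM and squares for 4T1–LM. Bars are exact 95% intervals of the fragment counts and dotted lines mark 2-fold. Xrcc3, Rad54l, Chek2, Fanca, Fancf and Mutyh lie far left of 1, and Rad52 lies right of 2 in both clones.

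Among the 18 genes of homologous recombination the changes went both ways, and the median log2 fold change was 0.04 in 4T1–HM and 0.17 in 4T1–LM. These medians hold for the chosen 18 only. Outside them, 24 further expressed genes of homologous recombination had medians of −0.37 in 4T1–HM and −0.52 in 4T1–LM. Of these 24, 17 were below 0 in 4T1–HM and 18 in 4T1–LM, beside 55.9% and 52.6% of all expressed genes. Xrcc3, which takes part in strand exchange during recombination, was at 4.41 FPKM with DMSO and 1.06 with DFX in 4T1–HM, and 6.29 with DMSO and 2.44 with DFX in 4T1–LM. Both DFX libraries lay below both DMSO libraries. Its level was 4.15-fold lower with DFX in 4T1–HM (2.96 to 5.93) and 2.57-fold lower in 4T1–LM (2.10 to 3.17). The HM_DFX value rests on 42 fragments.

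Rad54l, a motor protein that helps the broken end pair with the intact strand, was at 5.09 FPKM with DMSO and 1.46 with DFX in 4T1–HM, and 5.06 with DMSO and 2.62 with DFX in 4T1–LM. The DMSO libraries of the 2 clones were nearly equal and the DFX libraries were both lower. On the log2 scale the fall was −1.31 in 4T1–HM, and the value in 4T1–LM was −0.74, under the 2-fold threshold. Of its exon length, 15.4% overlaps Lrrc41 on the other strand.

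Rad52, which anneals single strands at resected breaks, was at 2.21 FPKM with DMSO and 6.04 with DFX in 4T1–HM, and 1.30 with DMSO and 4.22 with DFX in 4T1–LM. Both DFX libraries stood above both DMSO libraries. The ratio of FPKM was 2.73 in 4T1–HM (2.32 to 3.22) and 3.23 in 4T1–LM (2.65 to 3.98), and the log2 fold changes of FPKM + 1 were 1.13 and 1.18. Rad52 was thus the single gene of the 43 that rose past the threshold in either clone.

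The most abundant of the group by mean FPKM were Rad50 and Nbn, which with MRE11 form the complex that binds and trims broken ends. Rad50 was at 27.0 FPKM with DMSO and 32.7 with DFX in 4T1–HM, and 17.7 with DMSO and 32.5 with DFX in 4T1–LM. The 2 DFX libraries were alike, and LM_Ctrl was the lowest, so the log2 value was 0.27 in 4T1–HM and 0.85 in 4T1–LM. Nbn was at 14.0, 20.3, 13.4 and 18.3 FPKM in the same order of libraries, with log2 values of 0.51 and 0.42. Neither gene reached 2-fold.

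The other 13 genes of the group, at 1.25 to 18.3 FPKM, had log2 values from −0.93 to 0.47 in 4T1–HM and from −0.69 to 0.65 in 4T1–LM. In 4T1–HM 6 of them were below 0 and 7 above, and in 4T1–LM 5 were below and 8 above. Xrcc2, which also acts in recombination, had the lowest value of these in each clone. Brca1 and Brca2, named here after their values were seen because they are the best known genes of the group, were not past 2-fold in either clone. Brca1, which directs the resection of broken ends, was at 9.32 FPKM with DMSO and 13.3 with DFX in 4T1–HM, and 9.19 with DMSO and 12.0 with DFX in 4T1–LM. Its 2 DFX libraries were the higher ones. Brca2, a mediator of strand exchange, was at 4.11, 3.65, 3.24 and 5.60 FPKM in the same order, with LM_DFX the highest. Of the exon length of Rad54b, 35.8% is shared with Fsbp on the same strand, so its fragments cannot all be assigned.

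The 4 checkpoint kinases did not move as a group. Chek2, the kinase that ATM activates after double–strand breaks, was at 7.50 FPKM with DMSO and 1.95 with DFX in 4T1–HM, and 6.76 with DMSO and 2.94 with DFX in 4T1–LM. Both DFX libraries lay below both DMSO libraries. It was 3.85-fold lower with DFX in 4T1–HM (3.03 to 4.94) and 2.30-fold lower in 4T1–LM (1.92 to 2.76), while the log2 fold changes of FPKM + 1 were −1.53 and −0.98, the second just under the threshold.

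Chek1, the kinase that ATR activates at stalled forks, was at 10.7 FPKM with DMSO and 17.1 with DFX in 4T1–HM, and 20.2 with DMSO and 20.4 with DFX in 4T1–LM. HM_Ctrl was the low library, and the log2 value was 0.63 in 4T1–HM and 0.01 in 4T1–LM. Atm, the sensor kinase of double–strand breaks, was at 5.24 FPKM with DMSO and 4.94 with DFX in 4T1–HM, and 3.75 with DMSO and 7.52 with DFX in 4T1–LM. LM_DFX was the high library here, and the log2 values were −0.07 and 0.84. Without the added 1, Atm was 2.01-fold higher in LM_DFX than in LM_Ctrl (1.83 to 2.20). Atr, the sensor kinase of single–stranded DNA, was at 2.26, 2.99, 2.53 and 3.06 FPKM in HM_Ctrl, HM_DFX, LM_Ctrl and LM_DFX. Its log2 values were 0.29 and 0.20, so both were small and above 0. Summed over the 4 kinases, the level was 25.7, 27.0, 33.3 and 33.9 FPKM in the same order.

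The 11 Fanconi anaemia genes leaned down with DFX in both clones. In each clone 10 of the 11 were below 0, the exceptions being Fancm in 4T1–HM and Brip1 in 4T1–LM, and over all expressed genes 55.9% were below 0 in 4T1–HM and 52.6% in 4T1–LM. The median log2 fold change was −0.55 in 4T1–HM and −0.27 in 4T1–LM. In 4T1–LM the counting intervals of Fancd2, Fanci, Fancm and Brip1 included 1, so the sign of these genes there is not settled. With median–ratio scaling 10 of the 11 were below 0 in 4T1–HM and 8 in 4T1–LM, beside 49.2% and 50.0% of all expressed genes, and the medians were −0.44 and −0.24. Their summed level was 54.9 FPKM with DMSO and 32.4 with DFX in 4T1–HM, and 58.8 with DMSO and 40.3 with DFX in 4T1–LM. Of the 11, Fanca and Fancf passed 2-fold in 4T1–HM and Fanca in 4T1–LM.

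Fanca, a scaffold of the core complex that attaches ubiquitin to FANCD2 and FANCI, was at 6.87 FPKM with DMSO and 1.89 with DFX in 4T1–HM, and 8.79 with DMSO and 2.54 with DFX in 4T1–LM. Both DFX libraries were far below both DMSO libraries, and the 2 clones were close in the size of the fall. It was 3.63-fold lower in 4T1–HM (3.15 to 4.20) and 3.46-fold lower in 4T1–LM (3.11 to 3.85). Of its exon length 10.5% overlaps Zfp276 on the other strand.

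Fancf, an adaptor of the core complex, was at 6.14 FPKM with DMSO and 2.06 with DFX in 4T1–HM, and 4.66 with DMSO and 1.97 with DFX in 4T1–LM. The 2 DFX libraries were nearly equal and below both DMSO libraries. The log2 fold change was −1.22 in 4T1–HM and the value in 4T1–LM was −0.93, on 50 fragments in HM_DFX and 73 in LM_DFX. The most abundant of the group were Fancl, the ubiquitin ligase, and Fance, which binds FANCD2. Fancl was at 7.46, 5.41, 10.2 and 7.95 FPKM in HM_Ctrl, HM_DFX, LM_Ctrl and LM_DFX, and Fance at 8.69, 4.46, 8.29 and 6.03. Each was lower in the DFX library of its clone, by less than 2-fold on the log2(FPKM + 1) scale. The remaining 6 genes, Brip1 aside, had log2 values from −0.70 to 0.35 in 4T1–HM and from −0.92 to −0.01 in 4T1–LM. Fancd2 and Fanci, the pair that the core complex marks, were −0.70 and −0.65 in 4T1–HM and −0.01 and −0.03 in 4T1–LM.

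Mismatch repair was represented by 3 genes, and none passed 2-fold. Msh6, which recognises single mismatches, was at 28.7 FPKM with DMSO and 29.0 with DFX in 4T1–HM, and 50.1 with DMSO and 39.6 with DFX in 4T1–LM. Both 4T1–LM libraries were above both 4T1–HM libraries. Msh3, which recognises longer loops, was at 2.19, 3.59, 1.71 and 2.68 FPKM in the same order. It was higher in the DFX library of each clone, with log2 values of 0.53 and 0.44. Pms2, a nuclease of the pathway, was at 2.76, 2.29, 3.00 and 2.00 FPKM, with log2 values of −0.19 and −0.41.

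Excision repair had the lowest median of the 5 roles in each clone, −0.97 in 4T1–HM and −0.37 in 4T1–LM. In each clone 6 of its 7 genes were below 0, beside 55.9% and 52.6% of all expressed genes. With median–ratio scaling these were 6 and 5, beside 49.2% and 50.0%. Outside the 43, 17 further nucleotide excision genes had medians of 0.02 and 0.15, with 8 and 7 below 0. The 21 further expressed genes of base excision and single–strand break repair had medians of −0.37 and −0.18, with 14 and 12 below 0. The summed level of the 7 genes fell from 124.8 to 61.6 FPKM in 4T1–HM and was 123.9 FPKM in LM_Ctrl and 87.7 in LM_DFX. Ercc1, which with XPF cuts the strand beside bulky damage, was at 56.1 FPKM with DMSO and 21.7 with DFX in 4T1–HM, and 47.8 with DMSO and 34.7 with DFX in 4T1–LM. HM_DFX stood below the other 3 libraries. Ercc1 was 2.58-fold lower with DFX in 4T1–HM (2.40 to 2.78) and 1.38-fold lower in 4T1–LM (1.30 to 1.46), and HM_Ctrl had more Ercc1 per exon length than any other gene of the 43.

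Neil3, a glycosylase of oxidised bases that also unhooks linked strands, was at 6.45 FPKM with DMSO and 2.26 with DFX in 4T1–HM, and 5.53 with DMSO and 4.06 with DFX in 4T1–LM. HM_DFX was again the low library. The log2 fold change was −1.19 in 4T1–HM and the value in 4T1–LM was −0.37. Parp1, which senses strand breaks and makes poly(ADP–ribose), was at 33.7, 18.6, 43.2 and 26.4 FPKM in HM_Ctrl, HM_DFX, LM_Ctrl and LM_DFX. Both DFX libraries were below both DMSO libraries, with log2 values of −0.82 and −0.69 that did not reach 2-fold. Xrcc1, the scaffold of single–strand break repair, was at 9.54, 6.63, 7.91 and 8.17 FPKM, with HM_DFX the lowest.

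Of the 43 genes 4 encode proteins with an iron–sulfur cluster, and they did not share a direction. Mutyh, the glycosylase that removes adenine opposite 8–oxoguanine, was at 3.25 FPKM with DMSO and 0.693 with DFX in 4T1–HM, and 5.33 with DMSO and 1.33 with DFX in 4T1–LM. Both DFX libraries were far below both DMSO libraries. It was 4.68-fold lower in 4T1–HM (3.07 to 7.42) and 4.01-fold lower in 4T1–LM (3.07 to 5.27), the lowest ratio of the 43 genes in each clone, on 26 fragments in HM_DFX and 76 in LM_DFX. Nthl1, a glycosylase of oxidised pyrimidines, was at 8.79, 4.00, 6.59 and 6.47 FPKM in HM_Ctrl, HM_DFX, LM_Ctrl and LM_DFX. HM_DFX was the low library, with log2 values of −0.97 in 4T1–HM and −0.02 in 4T1–LM.

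Ercc2, the XPD helicase that opens the strands around bulky damage, was at 7.05, 7.70, 7.52 and 6.60 FPKM in HM_Ctrl, HM_DFX, LM_Ctrl and LM_DFX. Its 4 levels were close, although 42.4% of its exon length overlaps Gm26852 and Klc3 on the other strand. Brip1, the FANCJ helicase, was at 5.68, 4.55, 4.94 and 5.46 FPKM in the same order, with log2 values of −0.27 and 0.12. The deposited values measure mRNA and say nothing of whether the proteins held their clusters.

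The 2 clones were compared side by side in DMSO and in DFX. Without DFX no gene of the 43 differed by 2-fold between HM_Ctrl and LM_Ctrl, where 3.15% of all expressed genes were lower and 3.65% higher. The log2 differences ran from −0.86 for Chek1 to 0.59 for Rad50, with a median of 0.06, and 17 of the 43 ratios had a counting interval that includes 1. With DFX no gene differed by 2-fold between HM_DFX and LM_DFX either, where 5.05% of all genes were lower and 3.31% higher. There 30 of the 43 (69.8%, beside 54.2% of all expressed genes) were below 0 and 13 above, with a median of −0.28 beside −0.05 over all expressed genes. HM_DFX held at least 1.5-fold less of Xrcc3, Ercc1 and Neil3 than LM_DFX did, with log2 differences of −0.74, −0.65 and −0.64. These 3 are 6.98% of the 43, beside 14.6% of all expressed genes.

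The size of the DFX response was set side by side in the 2 clones, which share no library. No gene of the 43 had log2 fold changes of FPKM + 1 at least 2-fold apart, where 8.9% of all expressed genes did. On that scale the calls made in 4T1–HM alone do not mark a gene as different between the clones. With 0.1 added in place of 1, Atm, Neil3 and Nthl1 were at least 2-fold apart, 6.98% of the 43 beside 16.3% of all expressed genes. With FPKM + 1, the 4T1–HM value was below the 4T1–LM value for 28 of the 43 genes (65.1%), beside 56.5% of all expressed genes. At 1.5-fold apart, Brca2, Rad51d, Atm, Fancd2, Fanci, Ercc1, Neil3 and Nthl1 had the lower value in 4T1–HM, and Chek1 had the higher. These 9 are 20.9% of the 43, beside 26.2% of all expressed genes. The widest gap was that of Nthl1, −0.95 on the log2 scale. Across the 43 genes the responses of the 2 clones had a Pearson r of 0.79, and across 10226 expressed genes with whole fragments it was 0.71, where genes are not independent replicates.

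**Figure D3:**
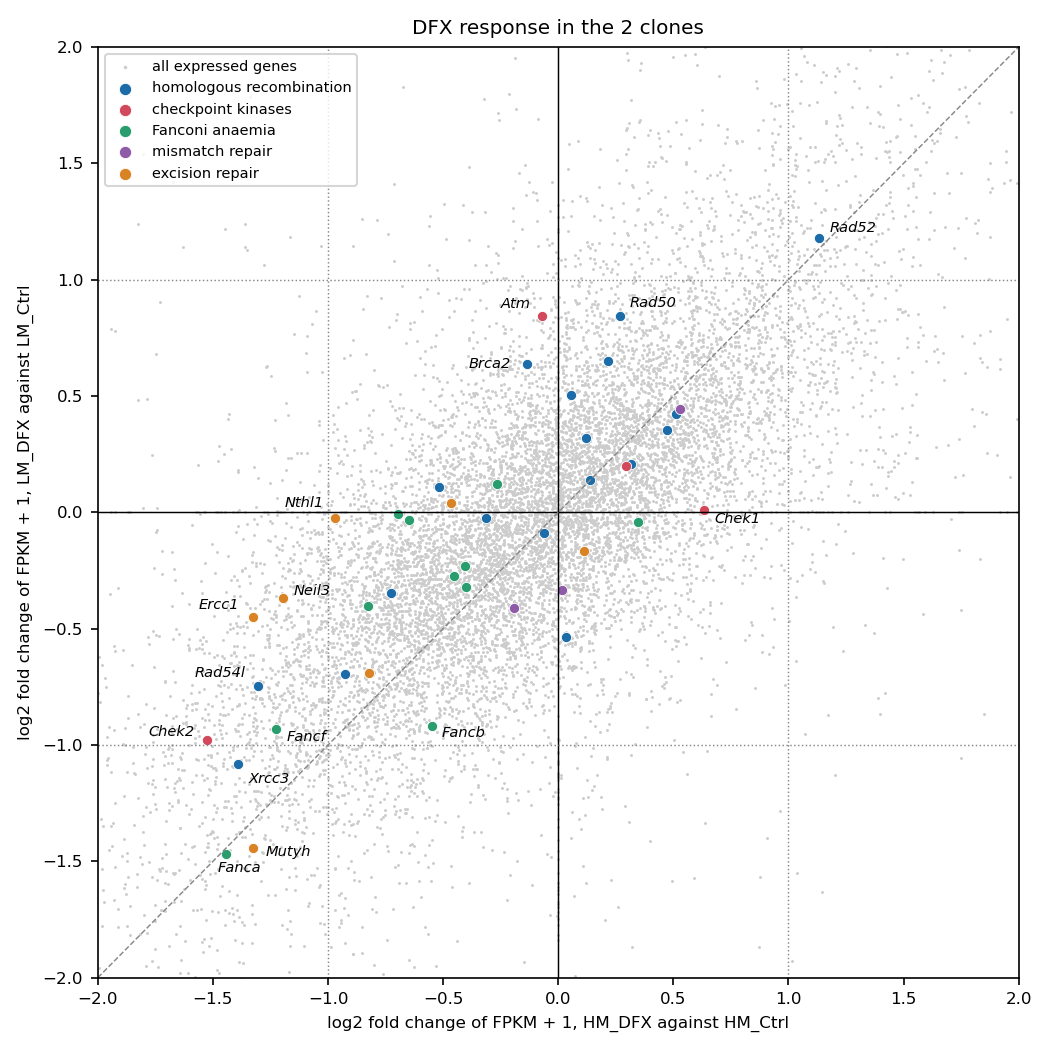
Log2 fold change of FPKM + 1 with DFX in 4T1–HM (horizontal) and 4T1–LM (vertical) for the 43 repair genes, coloured by role, over all expressed genes in grey. Dotted lines mark 2-fold and the dashed line equal change, and 467 grey genes lie outside the axes. Xrcc3, Fanca and Mutyh sit at the lower left and Rad52 at the upper right, while Ercc1, Neil3 and Nthl1 lie above the dashed line.

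Exon length moved with the response among these genes. Across the 43 genes log2 of exon length and log2 fold change had a Pearson r of 0.42 in 4T1–HM and 0.41 in 4T1–LM. Across 10226 expressed genes r was 0.02 and 0.09. These are descriptions across genes of the same libraries. The 21 genes shorter than the group's median of 5659 bases had a median log2 fold change of −0.72 in 4T1–HM and −0.35 in 4T1–LM, and the other 22 had −0.07 and 0.08. Of the 8 genes called lower in 4T1–HM, 6 were below that length, beside 79.6% of all genes called lower and 71.0% of all 10226 genes. The part of length in the calls was not tested.

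Other repair genes outside the 43 gave a wider view. Of 116 further genes 113 were expressed, and with DFX 9 were called lower and 1 higher in 4T1–HM, and 7 lower and 3 higher in 4T1–LM. These calls are 7.96% lower and 0.885% higher in 4T1–HM and 6.19% lower and 2.65% higher in 4T1–LM, all below the shares of all expressed genes. The medians were −0.19 and −0.17. H2afx, which encodes the histone variant marked at double–strand breaks, was at 101.0 FPKM with DMSO and 10.4 with DFX in 4T1–HM, and 155.9 with DMSO and 13.7 with DFX in 4T1–LM. It was 9.75-fold lower in 4T1–HM and 11.4-fold lower in 4T1–LM. Apex1, the endonuclease that follows glycosylases such as those of Mutyh and Nthl1, was at 93.3, 33.2, 109.9 and 39.0 FPKM in the same order and fell by 2.81-fold and 2.82-fold. Among genes with a mean of at least 2 FPKM the next fall was that of Cetn2, of the damage–sensing XPC complex, in 4T1–HM (log2 −1.14) and that of Ung, the uracil glycosylase, in 4T1–LM (log2 −1.31).

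Among rises in the wider list at the same limit was Gtf2h1, a subunit of the same TFIIH complex as ERCC2, at 27.5 FPKM with DMSO and 57.0 with DFX in 4T1–HM, and 22.0 with DMSO and 50.6 with DFX in 4T1–LM. Its log2 fold changes were 1.02 and 1.16. Paxx, of the end–joining machinery, rose in 4T1–LM (log2 1.47) and was 0.29 in 4T1–HM. Ddb2, which recognises ultraviolet damage, rose in 4T1–LM (log2 1.06) and was 0.55 in 4T1–HM. In 4T1–HM the next values after Gtf2h1, among genes with a mean of at least 2 FPKM, were 0.88 for Polb, the polymerase of base excision repair, and 0.83 for Ercc5, the XPG nuclease.

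Outside the 43 genes, 3 further helicases or nucleases of the list carry an iron–sulfur cluster, and all were below 0 in both clones. Dna2, which trims flaps and broken ends, was at 2.19 FPKM with DMSO and 0.332 with DFX in 4T1–HM, and 3.56 with DMSO and 0.459 with DFX in 4T1–LM. Both DFX libraries were below 1 FPKM, and the log2 fold changes were −1.26 and −1.64. Ddx11, a helicase of sister chromatid cohesion, was −0.66 in 4T1–HM and fell by 1.29 on the log2 scale in 4T1–LM. Rtel1, a helicase that unwinds telomere loops, was −0.47 and −0.63.

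**Figure D4:**
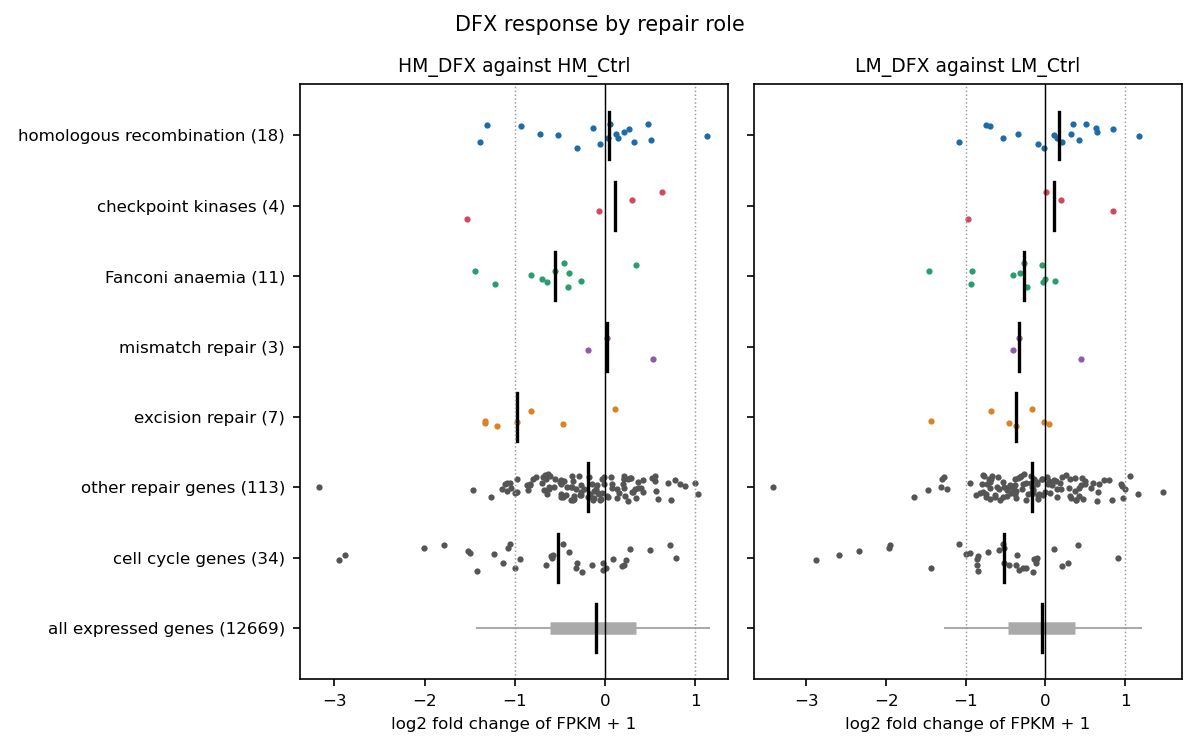
Log2 fold change of FPKM + 1 with DFX in 4T1–HM (left) and 4T1–LM (right) by role, 1 point per gene with the number of genes in brackets and a black line at the median. For all expressed genes the thick bar spans the 25th to 75th percentile and the thin bar the 5th to 95th. Fanconi anaemia, excision repair and cell cycle genes have medians below 0 in both clones, and the medians of the 18 homologous recombination genes are at 0.04 and 0.17.

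Cell cycle genes moved in the same libraries. Of 34 such genes 11 (32.4%) were called lower in 4T1–HM and 7 (20.6%) in 4T1–LM, beside 12.4% and 8.72% of all expressed genes. None was called higher, and the medians were −0.52 and −0.52. The most abundant were Pcna (log2 0.08 and −0.14), Mcm3 (0.72 and 0.41), Top2a (−1.08 and −0.52) and Mcm5 (0.27 and 0.11). Among 17 expressed p53 targets 6 (35.3%) were called higher in 4T1–HM and 5 (29.4%) in 4T1–LM, beside 6.93% and 7.09% of all expressed genes. The medians of these 17 genes were 0.54 and 0.15, and 7 and 8 of them were below 0. Their most abundant members were Gadd45a (log2 1.47 and 2.41), Plk2 (2.37 and 0.91), Perp (−0.97 and −0.04) and Cdkn1a, the inhibitor of cyclin–dependent kinases (2.50 and 2.78). The part of these changes in the values of the repair genes was not tested.

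Some of the 43 genes start close to a gene on the opposite strand. Of the 43 genes 16 had a protein–coding gene starting within 500 bases on the other strand, and in 14 of these pairs both genes were expressed. In 11 of the 14 pairs both partners had the same sign in 4T1–HM, and in 9 in 4T1–LM. Over 696 such pairs in the whole table the share was 56.0% in 4T1–HM and 55.7% in 4T1–LM. Pomgnt1, the partner of Rad54l and an enzyme of sugar transfer onto dystroglycan, was lower in both clones (log2 −1.32 and −1.23). Toe1, the partner of Mutyh, was at −0.02 and −0.22, far from the falls of Mutyh. Hscb, the partner of Chek2 and a chaperone of iron–sulfur cluster assembly, was at −0.73 in 4T1–HM and 0.48 in 4T1–LM. Zfyve21, the partner of Xrcc3, was at −0.10 and 0.57. Nbr1, an autophagy receptor and the partner of Brca1, rose in both clones (log2 1.36 and 1.10), where Brca1 was 0.47 and 0.35. These partners were named after their values were seen.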

How the data were processed

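Total RNA was sequenced as 1 library per group, 2 clones with and without DFX. The methods speak of triplicates in general, yet the table holds 1 column per group, and whether a library pools cultures is not given in the sources used here. The authors selected poly(A) RNA, made directional libraries and sequenced paired ends of 150 bases. The submitters' processing notes name FastQC, Trimmomatic, HISAT2, featureCounts and mm10, without versions, and the use of strand in counting is not given in the sources used here. The authors deposited FPKM for 49585 genes. The authors' edgeR test was not repeated, because 1 library per group gives no estimate of spread.

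Gene coordinates of 45125 genes equal GENCODE M21. With its exon lengths, FPKM of 96.9% of the 18235 genes above 0 gave whole fragments in all 4 libraries (within 0.02). Of the 43 genes 36 used such lengths and 7 a length solved from their own values. Fragments gave depth and exact (Clopper–Pearson) 95% intervals only. Fold changes are log2 of the ratio of FPKM + 1 (Python 3.11.15, pandas 2.3.3, scipy 1.17.1), for genes of at least 1 FPKM in any library, called at 2-fold. Values in 4 libraries are given for genes past 2-fold, the kinases, the iron–sulfur, mismatch and excision repair genes and the 2 most abundant of each other role. In the wider repair list the 3 largest falls and rises above a mean of 2 FPKM are named, and of the cell cycle and p53 lists the 4 most abundant. The 43 genes and all lists were chosen with earlier results of these data known. Also tried were thresholds of 1.5-fold and 3-fold, a pseudocount of 0.1, TPM, median–ratio and 75th percentile scaling, and all genes unfiltered.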

Additional observations from a re-analysis of the deposited data

Results flagged for a closer look

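Brca2 differed in direction between the clones. Its level was 0.888 times that of DMSO with DFX in 4T1–HM (95% counting interval 0.805 to 0.980) and 1.73 times in 4T1–LM (1.58 to 1.89). The log2 response in 4T1–HM minus that in 4T1–LM was −0.77. Opposite signs were seen for 9 of the 43 genes (20.9%), beside 23.0% of all expressed genes. Gaps wider than that of Brca2 were those of Nthl1 (−0.95), Atm (−0.91), Ercc1 (−0.88) and Neil3 (−0.83). With 1 library per group the difference between the clones was not tested.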

How the results depend on the processing

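A pseudocount of 0.1 moved the number lower with DFX in 4T1–HM from 8 to 11 (25.6%, beside 18.9% of all genes). Rad51c, Xrcc2 and Nthl1 were the additions. In 4T1–LM the number went from 3 to 6 (Chek2, Fancb and Fancf in addition, beside 13.6% of all genes). Genes lower in HM_DFX than in LM_DFX went from 0 to 1 (Xrcc3, beside 9.34% of all genes). Genes whose response differed by 2-fold between the clones went from 0 to 3 (Atm, Neil3 and Nthl1, beside 16.3%). The 1 added to FPKM weighs most on low genes. At 1.5-fold, 15 genes were lower and 2 higher with DFX in 4T1–HM, and 9 lower and 5 higher in 4T1–LM, beside 26%, 16%, 20% and 16.5% of all genes, so the 9 (20.9%) were at the background. At that threshold 3 were lower and 1 higher in HM_Ctrl against LM_Ctrl, 3 were lower in HM_DFX against LM_DFX, and 9 differed in response, beside 8.70%, 10.5%, 14.6% and 26.2%. At 3-fold on FPKM + 1 the count was 0 for genes lower and higher with DFX in either clone. Over all genes 3.41% were lower and 1.93% higher in 4T1–HM, and 2.56% and 2.62% in 4T1–LM. Without the added 1, Xrcc3, Rad54l, Chek2, Fanca and Mutyh were past 3-fold lower in 4T1–HM. In 4T1–LM Fanca and Mutyh were past 3-fold lower and Rad52 higher. No share of all genes was taken for these ratios. Without a filter, with median–ratio scaling, TPM and 75th percentile scaling, the counts at 2-fold stayed within 1.5 times. Median–ratio scaling moved the median of all genes in HM_DFX against HM_Ctrl from −0.10 to 0.01, the share of genes lower from 12.4% to 10.1% and higher from 6.93% to 8.95%. Under it 8 of the 43 were lower and 1 higher, and their median was −0.18. Opposite signs between the clones were then seen for 13 of the 43 (30.2%), beside 22.5% of all expressed genes. The medians of the 43 genes in the 4 comparisons kept their side of 0 under all 5 alternatives to pseudocount, filter and scaling. That of LM_DFX against LM_Ctrl was −0.005 with median–ratio scaling, so its side of 0 says little. No paired analysis was possible because each group holds 1 library. Genes with under 100 fragments in a library, such as Mutyh, Xrcc3 and Fancf, have the widest intervals, and none of these counts has a replicate check.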
